A study of Homo sapiens with 48 samples.

Results

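Acetylation of histone H3 at lysine 27 (H3K27ac) was compared between L3.6pl cells treated with TNFα for 30 min and cells treated with vehicle. Every peak on chromosomes 1 to 22 and X of the TNFα list was called kept when it shared at least 1 bp with a vehicle peak and gained when it did not. Vehicle peaks without a partner in the TNFα list were called lost. Of 53861 peaks after TNFα, 9951 were gained and 43910 kept, and of 59855 vehicle peaks 43209 were kept and 16646 lost. The vehicle list covered 55.5 Mb and the TNFα list 45.1 Mb.

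L3.6pl is an established human pancreatic cancer cell line. Each condition had 3 ChIP-seq samples, so 6 of the 48 samples of the series enter the comparison, and the labels set them apart by treatment alone, PBS as vehicle (for a duration the labels do not give) or TNFα for 30 min. The peaks of RELA after 30 min of TNFα, of RELA in vehicle and of FOSL1 in vehicle, and the H3K27ac peaks after 6 h of TNFα and after TWEAK for 30 min or 6 h, served to describe the classes. The authors called 1 peak list per condition on merged samples, so there is no spread between replicates, no test across replicates was possible and no p-value is given. Intervals are exact (Clopper-Pearson) 95% intervals of a share, which cover counting error only, and peaks are not replicates. The lists do not hold read numbers, so depth is unknown, and a deeper or better enriched library can give more and longer peaks. In the RELA list the peak names mention replicate 1 beside a merge, which leaves unclear whether its 3 samples were all pooled.

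H3K27ac marks active promoters and enhancers, where acetyltransferases recruited by transcription factors acetylate the nucleosomes on either side of the bound DNA. TNFα binds its receptor and activates the IκB kinase complex, which leads to degradation of IκB and lets RELA, the main activating subunit of canonical NF-κB, enter the nucleus and bind κB sites. FOSL1 is a subunit of AP-1, a factor that occupies many enhancers of epithelial tumour cells before any stimulus.

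Sequences around the RELA summit are printed below for some of the strongest gained regions and for some listed genes. They are 100 bp of the plus strand of hg38, centred on the summit, with matches to the NF-κB consensus of 10 letters (either strand) in capitals. The regions are named by the nearest protein-coding gene and are 4 of the 5 gained H3K27ac peaks of highest fold enrichment that overlapped RELA, followed by the 3 listed genes with the strongest RELA peak at a gained peak.
ATOH7, chr10:68212957-68213056: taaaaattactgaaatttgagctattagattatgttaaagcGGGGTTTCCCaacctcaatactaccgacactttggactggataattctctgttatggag
DDC, chr7:50632982-50633081: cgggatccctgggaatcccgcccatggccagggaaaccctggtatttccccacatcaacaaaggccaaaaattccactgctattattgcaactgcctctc
LONRF2, chr2:100365406-100365505: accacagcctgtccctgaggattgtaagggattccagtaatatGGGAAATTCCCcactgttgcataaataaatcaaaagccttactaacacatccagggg
EGR4, chr2:73293644-73293743: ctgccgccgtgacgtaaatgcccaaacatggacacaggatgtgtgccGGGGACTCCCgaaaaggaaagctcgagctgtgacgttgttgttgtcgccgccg
EFNA1, chr1:155124736-155124835: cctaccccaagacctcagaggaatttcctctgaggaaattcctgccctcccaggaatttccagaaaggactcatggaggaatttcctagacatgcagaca
IL32, chr16:3065272-3065371: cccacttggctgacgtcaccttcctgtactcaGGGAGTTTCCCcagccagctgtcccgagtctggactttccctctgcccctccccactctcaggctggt
TNFAIP3, chr6:137873483-137873582: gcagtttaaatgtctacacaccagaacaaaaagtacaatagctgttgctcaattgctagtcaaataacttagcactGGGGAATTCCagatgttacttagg
Of the 10 windows at the strongest gained peaks with RELA, 8 held the NF-κB consensus and 0 held the AP-1 consensus TGANTCA. The printed windows of DDC and EFNA1 held neither. No match says only that these letters are not in that window.

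The gained peaks made up 18.5% of the TNFα list (95% interval 18.1 to 18.8) and the lost peaks 27.8% of the vehicle list (27.5 to 28.2), or 0.598 gained per lost. More peaks were lost than gained on 22 of 23 chromosomes. The ratio ranged from 0.334 on chromosome X to 1.23 on chromosome 19, with a median of 0.618. Of the vehicle bases outside the TNFα list, 7.72 Mb lay in lost peaks and 10.4 Mb at the edges or in gaps of kept peaks, so the TNFα list was the sparser one at shared regions too. With the 40000 strongest peaks of each list, which sets the lists to the same length, 9449 were gained and 9826 lost, or 0.962 per lost. Lists of equal length hold both counts close by construction, so this ratio does not bear on the excess of losses.

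Gained and lost peaks were short and weak. The median length was 319 bp for gained peaks (quartiles 246 and 438) and 376 bp for lost peaks (279 and 553), against 837 bp for kept peaks of the TNFα list and 1053 bp for kept peaks of the vehicle list. The median fold enrichment, the authors' ratio of ChIP over input, was 2.68 for both gained and lost peaks, against 3.19 and 3.29 for kept peaks in the TNFα and vehicle lists. The strongest gained peak reached 6.28 and the strongest lost peak 7.72. The median −log10 q was 2.33 for gained and 2.58 for lost peaks, against 6.55 and 9.20 for kept ones, so gained and lost peaks were also the less certain calls.

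By position, gained peaks lay away from promoters. Within 1000 bp of the start site of a protein-coding gene there were 312 gained peaks or 3.14% (2.80 to 3.50), 690 lost peaks or 4.15% (3.85 to 4.46) and 24.6% of kept peaks (24.2 to 25.01). The order of gained and lost turned under 3 alternatives, among them the 40000 strongest peaks, where the shares were 6.31% and 6.30%. The centre of a gained peak lay in an intron in 48.8%, in an exon in 4.89% and between protein-coding genes in 46.3% of cases. The median GC content was 43.7% in gained, 43.9% in lost and 49.4% in kept peaks of the TNFα list.

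Tandem repeats of the reference, where reads are hard to place, took a larger share of gained peaks. A peak was placed in them when the 1000 bp around its centre matched itself to at least 0.4 at some shift of up to 400 bp. This held for 13.9% of gained peaks (13.3 to 14.6), 4.95% of kept peaks of the TNFα list and 3.38% of lost peaks, and for 26.2% of the RELA peaks. Values outside tandem repeats are therefore given beside the others, with 8563 gained, 41737 kept (TNFα list) and 16083 lost peaks.

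RELA overlapped gained peaks more often than lost ones. A RELA peak of 30 min of TNFα overlapped 1034 gained peaks or 10.4% (9.80 to 11.01), 12.9% of kept peaks (12.6 to 13.2) and 190 lost peaks or 1.14% (0.986 to 1.31). Outside tandem repeats the shares were 6.88% of gained (589 peaks; 6.35 to 7.44), 10.7% of kept and 0.342% of lost peaks (55 peaks; 0.258 to 0.445). The share was higher in gained than in lost peaks on each of the 23 chromosomes. Counted by summits, which does not reward long peaks, there were 75.1 RELA summits per Mb of gained peak, 94.95 per Mb of kept peak and 3.86 per Mb of lost peak outside tandem repeats. With tandem repeats included, the density was 179 per Mb of gained, 124 per Mb of kept and 21.0 per Mb of lost peak, so the order of gained and kept depends on the repeats.

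FOSL1, measured in vehicle, lay the other way round. Its list comes from vehicle, as lost peaks do, and that of RELA from TNFα, as gained peaks do. Factor and condition cannot be told apart in this contrast. FOSL1 overlapped 15.3% of gained peaks (14.6 to 16.0), 61.1% of kept peaks (60.7 to 61.6) and 29.0% of lost peaks (28.3 to 29.7). Outside tandem repeats the share of gained peaks was 8.40% (7.82 to 9.004) and that of lost peaks 28.4% (27.7 to 29.1). In the top quartile of fold enrichment of each list, FOSL1 overlapped 16.0% of gained (11.8 to 21.0) and 50.8% of lost peaks (47.0 to 54.5), so the order held among strong peaks. When both lists were first cut to a fold enrichment of at least 4, the shares were 68.4% and 67.3%, but there a peak that stayed below the limit in 1 list counts as gained or lost.

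**Figure D1:**
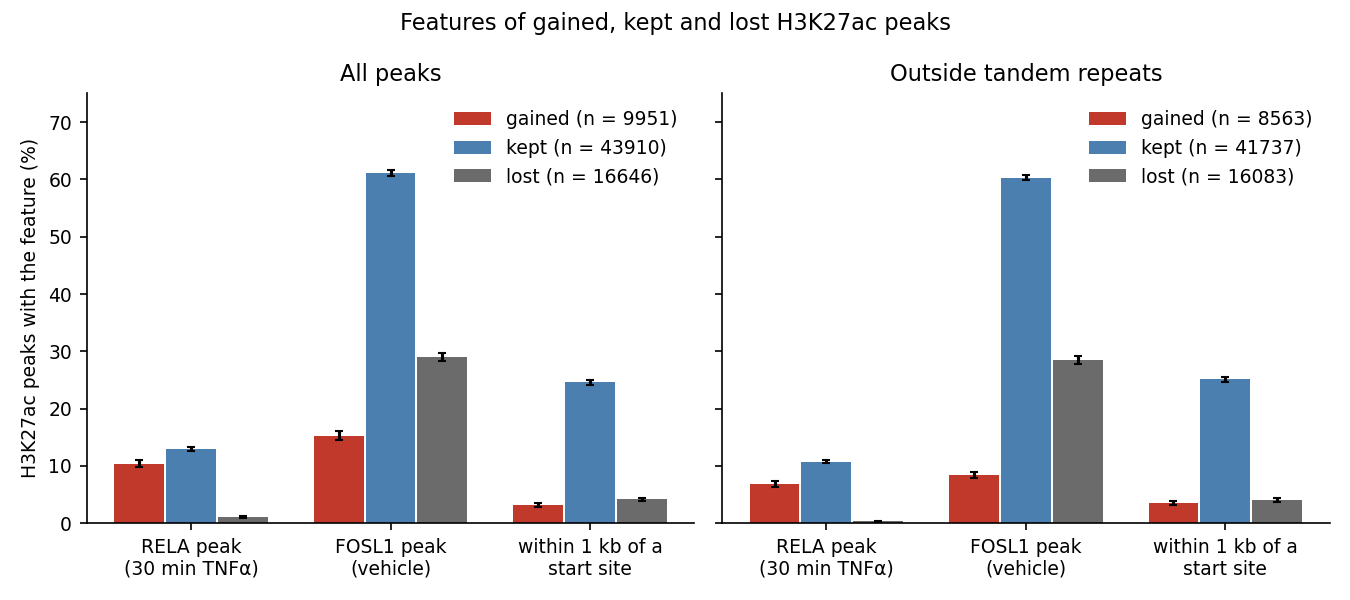
Share of gained, kept (TNFα list) and lost H3K27ac peaks that overlap a RELA peak of 30 min of TNFα, overlap a FOSL1 peak of vehicle or lie within 1000 bp of a protein-coding start site, for all peaks (left) and outside tandem repeats (right). Error bars are exact 95% intervals. RELA overlapped 10.4% of gained and 1.14% of lost peaks, and FOSL1 15.3% and 29.0%.

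Most gained peaks had no RELA, but the strongest and longest ones often did. Peaks outside tandem repeats were split into 4 groups of equal size within each list by fold enrichment. In the weakest quartile of the TNFα list (up to 2.61), RELA overlapped 4.03% of 3924 gained and 7.21% of 8651 kept peaks. In the strongest quartile (above 3.73), it overlapped 33.6% of 262 gained peaks (27.9 to 39.7) and 14.6% of 12313 kept peaks (13.9 to 15.2). Among lost peaks the share stayed between 0.308% and 0.709% in all 4 quartiles of the vehicle list.

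Split by length, gained peaks overlapped RELA more often than kept peaks in each quartile. The shares were 2.97% and 1.41% up to 379 bp, 27.3% (23.6 to 31.2) and 9.31% from 714 to 1232 bp, and 56.1% (46 of 82; 44.7 to 67.0) and 22.4% above 1232 bp. Of 216 lost peaks longer than 1345 bp, 0 overlapped RELA, which allows a share of up to 1.69%, while 75.9% of them overlapped FOSL1 (69.7 to 81.5). These long lost peaks were nearly all called again later, 214 at 6 h of TNFα and 212 at 6 h of TWEAK.

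**Figure D2:**
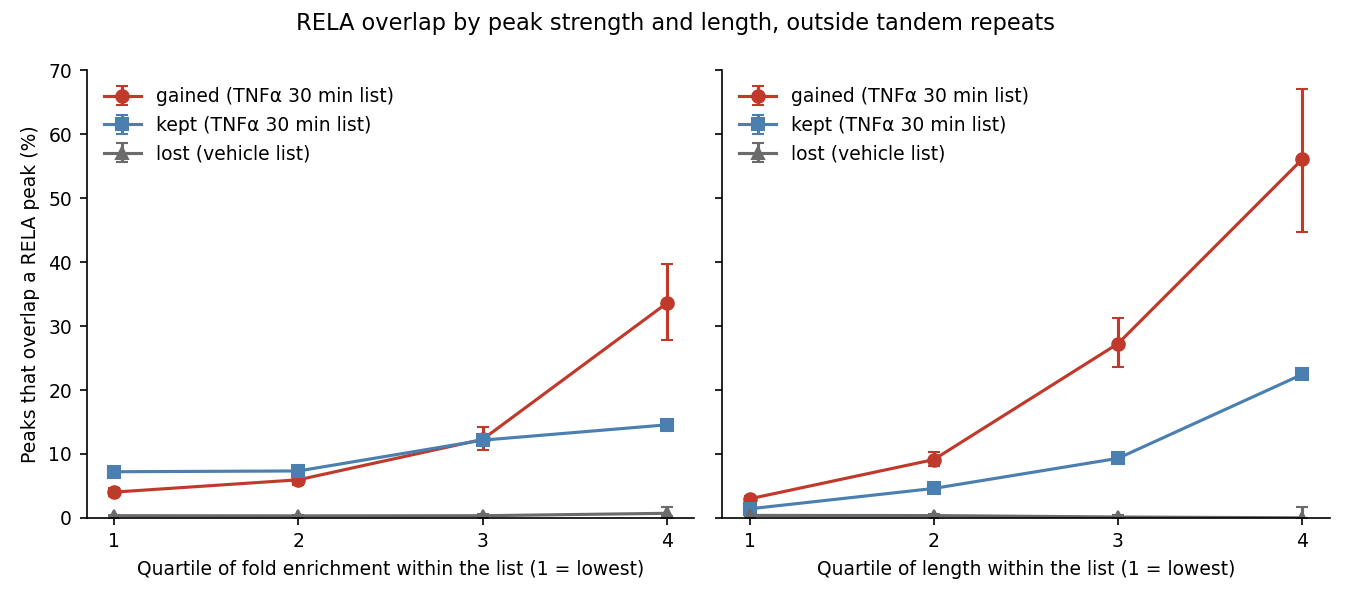
Share of H3K27ac peaks that overlap RELA, by quartile of fold enrichment (left) and of length (right) within the list of each class, outside tandem repeats, with exact 95% intervals. In the top quartile, 33.6% of gained peaks by fold enrichment and 56.1% by length overlapped RELA, against 0.709% and 0% of lost peaks.

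Around RELA summits the added H3K27ac calls were more frequent on both sides than at the summit. Of the 4248 RELA summits outside tandem repeats that lay in no FOSL1 peak, 23.7% had an H3K27ac peak 300 bp upstream on the plus strand in vehicle (22.4 to 24.97) and 40.5% after TNFα (39.0 to 42.0). At 300 bp downstream the shares were 23.5% and 41.1%. At the summit itself they were 24.6% (23.4 to 26.0) and 30.8% (29.4 to 32.2). The vehicle profile was flat across the summit, and the TNFα profile had a dip there. At 1000 bp downstream both were close, 10.9% and 11.1%.

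Where RELA and FOSL1 overlapped (4059 summits), H3K27ac was already frequent in vehicle and the lists differed less. At 300 bp upstream the share was 78.9% in vehicle (77.6 to 80.1) and 83.3% after TNFα (82.1 to 84.5), and at the summit 68.1% and 68.2%. At 48430 FOSL1 summits without RELA the share at 300 bp upstream was 55.3% in vehicle and 43.0% after TNFα, a difference of -12.3 percentage points. RELA summits without FOSL1 were thus covered 16.9 points more often after TNFα at the same distance, although the TNFα list as a whole was sparser.

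**Figure D3:**
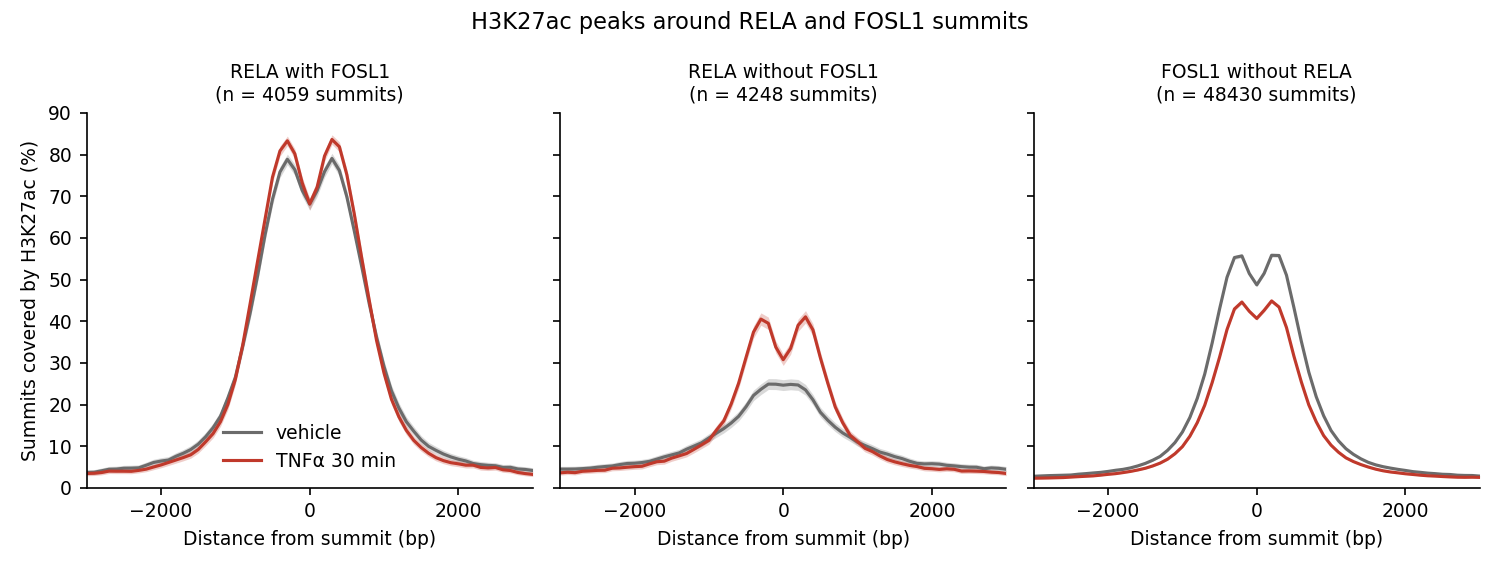
Share of summits covered by an H3K27ac peak at each distance on the plus strand, in vehicle (grey) and after 30 min of TNFα (red), for 4059 RELA summits with FOSL1, 4248 RELA summits without FOSL1 and 48430 FOSL1 summits without RELA, outside tandem repeats. Bands are exact 95% intervals. Within 800 bp of RELA summits the red line is above the grey one on both flanks and further out it is close to or below it, and at FOSL1 summits without RELA it is below throughout the distances up to 1000 bp.

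The RELA regions were also sorted by H3K27ac within 500 bp of the summit. H3K27ac was called after TNFα alone at 1004 of 8307 regions outside tandem repeats, in both lists at 5164, in vehicle alone at 83 and in neither at 2056. FOSL1 overlapped 15.0% of the regions with H3K27ac after TNFα alone (12.9 to 17.4) and 71.4% of those with H3K27ac in both lists (70.2 to 72.6). The median RELA fold enrichment was 7.14 in the former (quartiles 5.68 and 9.96) and 6.30 in the latter (4.89 and 9.43). Within 1000 bp of a protein-coding start site lay 3.49% of the former and 25.4% of the latter, and 1.69% and 5.56% were also in the RELA list of vehicle. For regions with H3K27ac in neither list, the shares were 8.41% with FOSL1, 2.97% near a start site and 2.33% in the RELA list of vehicle. Their median RELA fold enrichment was 5.92. Low FOSL1 and promoter shares were thus not particular to regions acetylated after TNFα alone.

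The sequence at these summits was compared in the same classes. In the 200 bp around the summit, the NF-κB consensus was found in 56.9% of RELA regions with H3K27ac after TNFα alone (53.7 to 60.0), 37.9% of those with H3K27ac in both lists (36.5 to 39.2) and 62.0% of those in neither (59.9 to 64.1). It was found in 46.2% of all RELA regions outside tandem repeats and in 1.51% of 29111 windows spaced evenly over the genome. TGANTCA, which reads the same on both strands, was found in 18.4% of the regions acetylated after TNFα alone (16.1 to 21.0) and 21.1% of those acetylated in both lists (20.0 to 22.3), beside 6.22% of genome windows and 50.2% of FOSL1 regions without RELA. In regions acetylated in both lists, the NF-κB consensus was present in 31.2% of those with FOSL1 and 54.4% of those without it. In regions acetylated after TNFα alone it was present in 48.3% and 58.4%. Split in this way, TGANTCA was more frequent in regions acetylated after TNFα alone than in both lists, with 42.4% (34.4 to 50.7) against 27.1% (25.6 to 28.5) where FOSL1 was present and 14.2% (11.9 to 16.7) against 6.37% (5.18 to 7.74) where it was not, so its order over all regions turned.

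At gained peaks without RELA these letters were rarer than at RELA summits, though a window at a peak centre is not one at a summit. The 200 bp at the centre of 7974 such peaks held the NF-κB consensus in 3.05% (2.68 to 3.45) and TGANTCA in 7.59% of cases (7.02 to 8.19). For 16028 lost peaks without RELA the shares were 3.04% and 12.3% (11.8 to 12.8), and for kept peaks of the TNFα list without RELA 4.20% and 12.5%. Genome windows held the NF-κB consensus in 1.51% and TGANTCA in 6.22% of cases. A match is a description of the sequence and does not show a bound site.

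Kept peaks differed little in strength. For 35924 pairs of 1 vehicle and 1 TNFα peak outside tandem repeats, the median log2 ratio of fold enrichment, TNFα over vehicle, was -0.02, with 5% of pairs below -0.42 and 5% above 0.34. Ratios are read only against that median, since the fold enrichment of each list depends on its own ChIP. The median was 0.06 at 3577 pairs with RELA and 0.14 at 575 pairs with RELA and no FOSL1. A ratio above 0.5 was reached by 1.37% of all pairs, by 2.96% of those with RELA (106 pairs) and by 6.43% of those with RELA and no FOSL1 (37 pairs).

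Length differed more than fold enrichment. The median length over all pairs was 1088 bp in vehicle and 895 bp after TNFα, and 28.4% of the pairs were longer after TNFα. At pairs with RELA the medians were 1436 and 1445 bp, and 49.7% were longer. At pairs with RELA and no FOSL1 the medians were 936 and 1147 bp, and 63.5% were longer. At 18334 pairs with FOSL1 and no RELA they were 1276 and 1053 bp, and 21.2% were longer. Pairs with both RELA and FOSL1 had medians of 1513 and 1508 bp, and RELA pairs at promoters 1643 and 1585 bp, of which 39.0% were longer. Pairs with RELA and no FOSL1 were thus mostly longer after TNFα, while pairs without RELA were mostly not (25.7% longer).

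The strongest gained peaks with RELA lay mostly outside promoters. The peak of highest fold enrichment (6.28, 492 bp) was on chromosome 10 from 68212986 to 68213477, between genes and 18636 bp from the start of ATOH7, a neural transcription factor gene. It had a RELA fold enrichment of 17.9 and was called in no other H3K27ac list. A peak of 894 bp and fold 5.93 lay on chromosome 7 from 50632081 to 50632974, in an intron of GRB10, which codes for an adaptor of insulin receptor signalling. Its nearest start site, 66676 bp away, was that of DDC, the gene of aromatic L-amino acid decarboxylase. The peak was called again at 6 h of TNFα and in no TWEAK list.

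The next in order was an intergenic peak 42386 bp from LONRF2 (fold 5.70, RELA 22.7), which was called at 6 h of TNFα. At EGR4, an immediate-early zinc finger gene, a gained peak of 1059 bp covered the start site on chromosome 2 from 73293076 to 73294134 (fold 5.37, RELA 4.71), and it was called in the 3 other H3K27ac lists too. In an intron of BID, a BH3-only gene that links death receptors to mitochondria, a peak of 583 bp had a fold of 5.28.

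Of the 10, 4 others lay in an intron of MORC1 (fold 5.16, RELA 22.1), in an intron of CELF5 nearest to NFIC (4.88), 300 bp from the start of GALNT18, a glycosyltransferase gene (4.85, RELA 17.1), and in an intron of DMRTC1 nearest to FAM236A (4.82). MORC1 was called at 6 h of TNFα alone, NFIC at 30 min of TWEAK alone, GALNT18 in the 3 other H3K27ac lists and FAM236A in none. Of the 10 peaks, 2 overlapped FOSL1. The 5 strongest gained peaks without RELA were nearest to TRPM1, SPANXB1 (83042 bp away), SLC39A8, a zinc transporter gene, ARMC3 and KDF1, with fold enrichments from 5.12 to 5.63. Of these, TRPM1 alone was called at 6 h of TNFα, and all but SLC39A8 at 30 min of TWEAK.

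The strongest lost peaks were nearest to CYRIA (fold 7.72), PIK3C3, which codes for the class III phosphoinositide kinase (6.71), TRHDE (6.26), ENSG00000284686 (6.13), POLR3K, at the very end of chromosome 16 (6.11), EVI2A, in an intron of NF1 (5.99), WTAP, a subunit of the RNA methylation complex (5.98), GNG12 (5.95), ZNF549 (5.93) and POTEB2 (5.89). None of the 10 overlapped RELA and 5 overlapped FOSL1. All 10 were called again at 6 h of TNFα and at 6 h of TWEAK, and 7 were called at 30 min of TWEAK. ZNF549 was the only one of the 10 with a lost peak at its promoter. Several peaks lay far from the start site named, 552491 bp at TRHDE, 434367 bp at ENSG00000284686 and 322987 bp at PIK3C3. The distance was 130152 bp at WTAP, 90254 bp at POTEB2 and 69 to 57093 bp at the others.

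The other H3K27ac lists, which did not enter the classes, differed in which class they held more of. Both lists of 6 h held a larger share of the lost peaks, and that of 30 min of TWEAK a larger share of the gained ones. In the list of 6 h of TNFα, 26.7% of gained peaks were called (25.8 to 27.5) and 58.7% of lost peaks were called again (57.9 to 59.4). For TWEAK the shares were 38.5% and 28.2% after 30 min, then 17.9% and 47.5% after 6 h. The vehicle list shared more bases with the list of 6 h of TNFα (Jaccard index, shared over joint bases, 0.708) than with that of 30 min of TNFα (0.590). The latter was closest to the list of 30 min of TWEAK (0.680). The lists of 30 min thus resembled each other under both ligands, and their handling and depth cannot be told apart from time here.

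Gained peaks with RELA were called again under TNFα at a higher rate than those without, although most gained peaks called again had no RELA. Outside tandem repeats, 330 of 589 gained peaks with RELA or 56.0% were called at 6 h of TNFα (51.9 to 60.1), against 1932 or 24.2% of 7974 gained peaks without RELA (23.3 to 25.2). At 30 min of TWEAK the order turned, with 31.2% (27.5 to 35.2) and 36.8% (35.8 to 37.9). At 6 h of TWEAK the shares were 23.9% and 16.1%. Calls at 6 h of TNFα but not at 30 min of TWEAK numbered 182 or 30.9% of gained peaks with RELA and 13.6% of those without, and the reverse pattern held for 6.11% and 26.2%. Gained peaks with RELA were longer (median 533 against 320 bp) and of higher fold enrichment (2.95 against 2.64), which was not matched in this comparison.

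With FOSL1 as well as RELA, 72 of 99 gained peaks or 72.7% were called at 6 h of TNFα (62.9 to 81.2). With RELA and no FOSL1, 52.7% of 490 were (48.1 to 57.1). Being called again also followed strength. In the weakest quartile of the TNFα list 23.2% and in the strongest 49.2% of gained peaks were called at 6 h of TNFα. Of lost peaks, 50.3% in the weakest and 91.5% in the strongest quartile of the vehicle list were called again at that time.

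**Figure D4:**
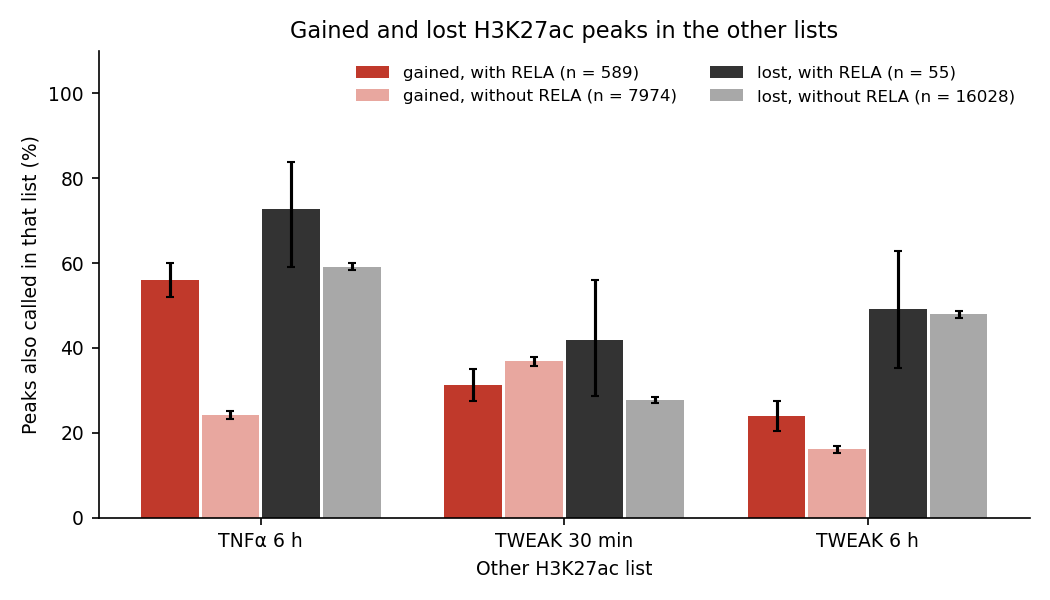
Share of gained and lost H3K27ac peaks, with and without RELA overlap, that were also called in the H3K27ac lists of 6 h of TNFα, 30 min of TWEAK and 6 h of TWEAK, outside tandem repeats, with exact 95% intervals. Gained peaks with RELA stood above those without at 6 h of TNFα (56.0% and 24.2%) and below them at 30 min of TWEAK (31.2% and 36.8%).

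A gained peak lay within 50 kb of the start site of 6567 of 19970 protein-coding genes, or 32.9%. A gained peak with RELA did so for 831 genes or 4.16%, and a lost peak for 9090 genes or 45.5%. Genes were also compared by the bases covered by H3K27ac within 50 kb of the start site. Among 16069 genes with at least 2000 covered bases over both lists, 1.72% had at least 1.5 times as many after TNFα and 13.8% had at least 1.5 times fewer, and the median ratio was 0.859. Neighbouring genes share peaks and are not independent.

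Genes of the NF-κB pathway and of the other lists are set beside these shares. A kept peak lay within 50 kb of 85.0% of all genes and of 100% of the genes in most lists. Listed genes thus more often lay near H3K27ac than the background did, and this was not matched. Of the 6 NF-κB subunit genes, 3 had a gained peak, 2 one with RELA and 1 a lost peak, and the median ratio of covered bases was 1.18. As shares these were 50.0%, 33.3% and 16.7%, against 32.9%, 4.16% and 45.5% of all genes. NFKB1, which codes for p105 and p50, had 3 gained and 0 lost peaks and went from 2056 to 3949 covered bases. Its gained peak with RELA lay in an intron of the gene on chromosome 4 from 102524961 to 102525450 (fold 2.40, RELA 7.38) and was called again at 6 h of TNFα. RELB, the partner of p52 in noncanonical signalling, had 3 gained peaks without RELA and went from 2990 to 5046 bases. BCL3, an atypical IκB, had 1 gained peak with RELA at its promoter and 2 lost peaks, and went from 14284 to 13517 bases.

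Of 12 genes of NF-κB feedback inhibitors, 7 had a gained peak, 3 of them with RELA, and 7 had a lost peak. TNFAIP3, which codes for the ubiquitin-editing enzyme A20, had 2 lost and 4 gained peaks, 3 of the gained ones with RELA. A pair of the gained peaks, from 137872617 to 137873332 (fold 2.41) and from 137873620 to 137874586 (2.82) on chromosome 6, lay in an intron on either side of the RELA summit at 137873533 (fold 15.9), whose sequence is printed above. Both were called at 6 h of TNFα. NFKBIA, which codes for IκBα, had 3 gained peaks without RELA and 1 lost peak, and went from 8196 to 10078 bases. CYLD, a deubiquitinase gene, went from 1173 to 3497 bases with 4 gained peaks, the longest of them (1842 bp, fold 3.00, RELA 5.82) within the neighbouring NOD2.

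Of 12 genes of TNF receptor signalling and survival, 4 had a gained peak, 1 of them with RELA, and 8 had a lost peak. That is 33.3%, 8.33% and 66.7%, against 32.9%, 4.16% and 45.5% of all genes, so the share with a gained peak was near that of all genes. The gained peak with RELA lay in an intron of TRAF3, an adaptor of the receptor complex (225 bp, fold 2.00). MAP3K14, the gene of the kinase NIK, had 0 gained and 2 lost peaks and went from 5526 to 3253 bases. BIRC3, which codes for cIAP2, kept 11 peaks and went from 15916 to 14108 bases.

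Among 13 chemokine genes, 6 had a gained peak, 3 of them with RELA, and 10 had a lost peak. The shares were 46.2%, 23.1% and 76.9%, against 32.9%, 4.16% and 45.5% of all genes. CXCL10 and CXCL11, interferon-inducible ligands of CXCR3, share a gained peak of 408 bp on chromosome 4 from 76023704 to 76024111 (fold 3.28, RELA 14.2), at the CXCL10 promoter. CXCL10 also had 1 lost peak and CXCL11 had 2. CCL5 had a gained peak of 764 bp with RELA (fold 3.64) that was called in the 3 other lists, and 1 lost peak. CXCL8, a neutrophil attractant, had 0 gained and 3 lost peaks and went from 11705 to 7547 covered bases, and at 6 h of TNFα it had 12383. The TWEAK lists covered 8279 bases around CXCL8 after 30 min and 9286 after 6 h, so both lists of 30 min were below vehicle. CXCL1 went from 2863 to 1887 bases and had 3701 at 6 h of TNFα, with 1047 and 2705 at 30 min and 6 h of TWEAK. CCL20 had 4 gained peaks without RELA and 2 lost peaks, and went from 6246 to 8001 bases.

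Among 16 genes of cytokines and growth factors, 12 had a gained peak, 3 of them with RELA, and 10 a lost peak. At IL32, an inflammatory cytokine gene, a gained peak of 1855 bp covered the start site on chromosome 16 from 3064691 to 3066545 (fold 3.13, RELA 17.6) and was called in the 3 other lists. LIF, a cytokine of the interleukin 6 family, had 2 gained peaks with RELA and 2 lost peaks, and went from 13324 to 13292 bases. AREG, which codes for the EGFR ligand amphiregulin, had 1 gained and 4 lost peaks and went from 5366 to 2388 bases.

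Of 13 genes of adhesion, matrix and migration, 8 had a gained peak, 4 of them with RELA, and 8 had a lost peak. That is 61.5%, 30.8% and 61.5%, against 32.9%, 4.16% and 45.5% of all genes. At EFNA1, which codes for ephrin A1, gained peaks from 155123984 to 155124545 (fold 2.75) and from 155124900 to 155125462 (2.48) on chromosome 1 lay on either side of the RELA summit at 155124786 (fold 18.9), between genes upstream of the start. EFNA1 also had 1 lost peak. EPHA2, its receptor, had 7 gained and 0 lost peaks, 1 of them with RELA, and went from 10829 to 13108 bases. At ICAM1, which codes for a ligand of leukocyte integrins, a gained peak of 1131 bp lay at the promoter (fold 3.38, RELA 6.50) and was called at 6 h of TNFα and in no TWEAK list. The interstitial collagenase gene MMP1 had 0 gained and 2 lost peaks and went from 5652 to 2992 bases, with 7017 at 6 h of TNFα. Around MMP1 the TWEAK lists covered 3303 bases after 30 min and 5756 after 6 h.

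Among 12 stress and immune effector genes, 6 had a gained peak, 3 of them with RELA, and 7 had a lost peak. At TAP1, which codes for a subunit of the peptide transporter of antigen presentation, a gained peak of 1139 bp (fold 4.68, RELA 5.39) on chromosome 6 from 32852941 to 32854079 covered the start sites of TAP1 and the neighbouring PSMB9. It was the only H3K27ac peak after TNFα within 50 kb of TAP1, where 3 peaks were lost. Of 15 immediate-early and AP-1 genes, 10 had a gained peak, 2 of them with RELA, and 8 had a lost peak. As shares these were 66.7%, 13.3% and 53.3%, against 32.9%, 4.16% and 45.5% of all genes. DUSP1, a phosphatase gene that limits MAP kinase signalling, had 5 gained and 0 lost peaks and went from 9269 to 14333 bases. FOSL1 had a gained peak with RELA at its own promoter (457 bp, fold 2.58) and 1 lost peak within 50 kb.

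Of 16 pancreatic lineage and epithelial genes, 8 had a gained peak, 2 of them with RELA, and 13 a lost peak. That is 50.0%, 12.5% and 81.25%, against 32.9%, 4.16% and 45.5% of all genes. The gained peaks with RELA were near ELF3 (fold 2.28, RELA 14.4) and in an intron of KLF5 (1.77), both epithelial transcription factor genes. ELF3 had 0 lost peaks and KLF5 had 2. The median ratio of covered bases was 0.888, with members on both sides of 1. Covered bases went from 5770 to 3811 at CDH1, the gene of E-cadherin, and from 12317 to 8354 at FOXA1, and the other way from 3471 to 5082 at GATA6, from 9352 to 11407 at ELF3 and from 6867 to 8162 at KLF5. Of 14 housekeeping genes, 7 had a gained peak, 0 of them with RELA, and 8 a lost peak. As shares these were 50.0%, 0% and 57.1%, against 32.9%, 4.16% and 45.5% of all genes. A gained peak within 50 kb was thus not rare around genes of basic cell functions. The median ratio of covered bases at the housekeeping genes was 0.903.

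The gene lists that the study drew from its own RNA-seq of these ligands were counted as a whole. Of 263 TNFα-specific genes matched by name (of 310), 139 or 52.9% had a gained peak (46.6 to 59.0) and 29 or 11.03% one with RELA (7.51 to 15.5). The study's other list joins genes common to both ligands with TWEAK-specific ones. Of its 492 matched genes (of 626), 39.6% had a gained peak (35.3 to 44.1) and 5.49% one with RELA (3.65 to 7.88). A lost peak was more frequent than a gained one in both lists, with 61.6% (55.4 to 67.5) and 64.0% (59.6 to 68.3). The same held over all protein-coding genes, with 45.5% lost, 32.9% gained and 4.16% gained with RELA. A kept peak lay near 99.2% and 95.1% of the genes of the 2 lists and 85.0% of all genes, which was not matched. The median ratio of covered bases was 0.928 and 0.844, against 0.859 over all genes.

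**Figure D5:**
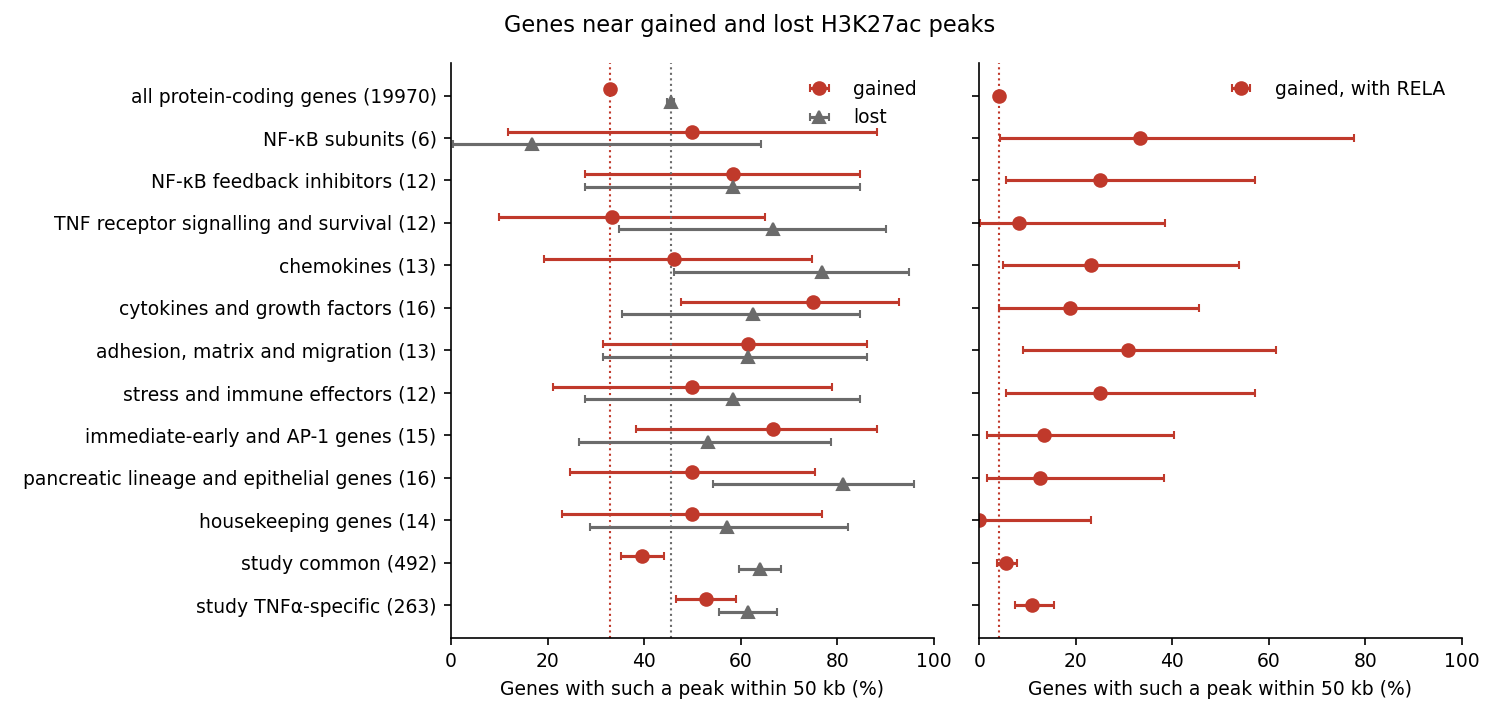
Share of the genes of each list with a gained or a lost H3K27ac peak within 50 kb of the start site (left) and with a gained peak that overlaps RELA (right), with exact 95% intervals and the number of genes in brackets. Dotted lines mark the shares over all protein-coding genes, 32.9% gained, 45.5% lost and 4.16% gained with RELA, and on the left the intervals of most short lists include them. The list named study common also holds TWEAK-specific genes.

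The genes with most gained peaks outside tandem repeats formed few loci. They were chosen by peaks of the list of 30 min of TNFα, so high coverage in that list is favoured by the choice. IDO1 and IDO2, neighbouring genes of tryptophan catabolism on chromosome 8, had 6 and 8 gained and 0 lost peaks, none with RELA. Around IDO2 the vehicle list covered 2980 bases. TNFα gave 8928 bases after 30 min and 4636 after 6 h, and TWEAK 8325 and 2849, so both lists of 30 min stood above the others. They did so too at DUSP1, with 14333 (TNFα) and 12820 (TWEAK) bases against 9269 to 11098 in the other lists, and at EPHA2, with 13108 and 12087 against 10736 to 11221.

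APOBEC3B, APOBEC3C, APOBEC3D and ENSG00000284554 on chromosome 22, members of a cytidine deaminase cluster or overlapping it, had 6 gained peaks each, most of them shared, and none with RELA. These genes are close copies of each other, so reads may have been placed in the wrong one. PSMA6, a proteasome subunit gene, and HPCAL1 had 6 gained and 2 lost peaks each. Around PSMA6 the vehicle list covered 3389 bases, the TNFα lists 5551 (30 min) and 7270 (6 h) and the TWEAK lists 2591 and 2362, so both TNFα lists were above the other 3.

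The most lost peaks were near CEACAM6, an epithelial adhesion gene on chromosome 19, with 9 lost and 0 gained peaks. The vehicle list covered 7038 bases there, the TNFα lists 973 (30 min) and 7144 (6 h) and the TWEAK lists 2191 and 4734. ANXA10, an annexin gene on chromosome 4, had 8 lost and 0 gained peaks, with 7665, 967, 6878, 2001 and 6763 bases in the same order. TSPAN14 had 9 lost and 3 gained peaks, 1 of the lost ones in a tandem repeat. STN1 and SH3PXD2A, neighbours on chromosome 10, had 7 lost peaks each and share most of them. At these 5 genes the list of 30 min of TNFα was the lowest of the 5 lists. They were chosen by peaks absent from that list, so its low coverage is favoured by the choice. None of the lost peaks at these genes overlapped RELA, and only 0.342% of all lost peaks outside tandem repeats did.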

How the data were processed

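Chromatin of L3.6pl cells was immunoprecipitated in 3 samples per condition. Reads were aligned by the authors with Bowtie2 2.5.0 (hg38), who called broad H3K27ac and narrow RELA and FOSL1 peaks with MACS2 against input, 1 list per condition on merged samples. The MACS2 version and the treatment of reads with several matches are not given in the sources used here. The deposited fold enrichment is a ratio of ChIP over input, and the deposited −log10 q-value, averaged over a broad peak, was used as a filter and a description. The −log10 p and score columns were not used. Of 16 lists, 8 were used.

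Overlaps, nearest genes (GENCODE 44, hg38) and motifs were computed in Python 3.11.15 (pysam 0.24.0, numpy 2.4.6, scipy 1.17.1, pandas 2.3.3, matplotlib 3.10.9). The overlap and repeat code was tested on simulated lists and sequences. Named genes are the nearest protein-coding genes of the 10 gained peaks of highest fold enrichment with RELA, 5 without RELA and 10 lost peaks, the 10 genes with most gained and 5 with most lost peaks (outside tandem repeats), and members of 10 gene lists. One of these genes is not reported here. The members, lists and rules were chosen with earlier results of these data known. The split of RELA regions by H3K27ac, the covered bases per gene with their limits, the limit on kept pairs and the genes whose sequences are shown were chosen after seeing the data. Alternatives were a stricter q, a minimum fold enrichment, the strongest peaks, other overlaps, chromosome Y, tandem repeats left out, and other RELA, promoter and gene definitions. Sequencing depth could not be taken from the lists. Signal tracks and reads were not used here.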

Additional observations from a re-analysis of the deposited data

How the results depend on the processing

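No paired analysis was possible because each condition was deposited as 1 list of merged samples, and for the same reason no replicate could be left out. Intervals of counts do not cover differences in depth or enrichment between lists. Counting the reported setting with its alternatives, gained peaks overlapped RELA more often than lost peaks in 11 of 11 settings and had the smaller median length in 8 of 8. They had the lower FOSL1 share in 7 of 8 and the lower promoter share in 7 of 10. The ratio of gained to lost peaks moved by over 1.5 times with the 40000 strongest peaks of each list alone. Lists of equal length hold that ratio close to even by construction. The limit on q was set on every list, RELA and FOSL1 included. The limits on fold enrichment and on the strongest peaks were set on all H3K27ac lists, that of 6 h of TNFα included. A changed overlap rule also applied to calls at 6 h of TNFα.

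With q of at most 0.001, there were 5265 gained peaks near 4190 genes, RELA overlapped 20.3% of gained and 1.78% of lost peaks, FOSL1 26.1% and 47.0%, promoters 4.81% and 6.50%, median lengths were 405 and 552 bp, and 27.7% and 62.4% were called at 6 h of TNFα. At fold enrichments of 4 and above, 2341 gained peaks near 3574 genes and 3854 lost peaks were left, with RELA at 26.0% and 7.19%, FOSL1 at 68.4% and 67.3%, promoters at 35.1% and 30.4%, median lengths of 938 and 1008 bp, and 21.7% and 53.1% called at 6 h of TNFα. With the 40000 strongest peaks, 9826 were lost (0.962 gained per lost), with RELA at 15.0% and 2.33%, FOSL1 at 31.6% and 43.0%, promoters at 6.31% and 6.30%, median lengths of 402 and 465 bp, and 24.6% and 54.4% called at 6 h of TNFα.

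With an overlap of 50% of the shorter peak, FOSL1 overlapped 16.5% of gained peaks, whose median length was 324 bp, and 56.1% of lost peaks were called at 6 h of TNFα. With peaks within 1000 bp counted as kept, FOSL1 overlapped 14.4% of gained and 30.0% of lost peaks, promoters 1.97% and 3.32%, and the median length of lost peaks was 383 bp. Within 1000 bp of a peak of 6 h of TNFα lay 29.0% of gained and 63.7% of lost peaks. With tandem repeats removed from all lists before the overlap, those of RELA and FOSL1 included, RELA overlapped 6.86% of gained and 0.462% of lost peaks. FOSL1 then overlapped 9.14% and promoters 4.83% of gained peaks, and median lengths were 333 and 381 bp. RELA shares of gained and lost peaks were 18.7% and 1.83% with RELA peaks widened by 500 bp, 6.78% and 0.967% with the summit inside the peak, and 7.62% and 0.613% with RELA peaks absent from vehicle. Promoter shares were 5.60% and 6.32% within 2500 bp, and 6.59% and 8.36% with start sites of any annotated gene. Genes with a gained peak numbered 1748 within 10000 bp and 10372 within 100000 bp. Chromosome Y moved no result beyond its interval. For kept peaks, RELA shares ranged from 10.1% to 16.1% and FOSL1 shares from 59.5% to 76.4%. The cause of these shifts was not tested.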
